A study of Homo sapiens with 48 samples.

Results

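The RNA of DLD-1, an epithelial line from a human colorectal cancer, was compared after 24 h of CNOT1 depletion. In CNOT1-AID cells an auxin-inducible degron (AID) sits on CNOT1, and auxin then directs the tagged protein to the proteasome through TIR1, a plant receptor. The 4 libraries compared, of 48 in the series, were 2 of CNOT1-AID cells with 1 mM auxin for 24 h and 2 of CNOT1-AID cells left untreated for 24 h. Parental cells with no tag, with 1 mM auxin for 24 h or untreated for 24 h, gave 2 libraries each and served to show what auxin does by itself. All of these cells were labelled TIR1+. Whether the tagged line is 1 clone is not given in the sources used here, and the protein itself was not measured. Genes were chosen by level alone: the 14921 of 58721 genes that held 1 TPM or more in at least 2 of the 24 steady-state libraries. Those 24 libraries also include a CNOT4-AID line and groups at 8 h, which entered the gene filter, the scaling and the estimate of spread. TPM is a level corrected for gene length that sums to the same total in every library.

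CNOT1 holds the subunits of the CCR4-NOT complex together. Its deadenylases shorten the poly(A) tails of mRNAs in the cytoplasm, and a shortened tail lets an mRNA be decapped and degraded. Adaptor proteins such as BTG and TOB proteins, TTP-family zinc finger proteins, Pumilio, Nanos and the GW182 proteins of the microRNA pathway bring the complex to chosen mRNAs. In epithelial cells such targets include many mRNAs of early-response genes and feedback regulators, which are made and destroyed quickly.

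Total RNA was freed of ribosomal RNA before library preparation, with a fixed amount of ERCC spike-in RNA added to a fixed amount of total RNA, so ERCC scaling gives levels per total RNA and not per cell. The depth behind the TPM values is unknown. Over the genes tested, log2 levels correlated across genes with r of 0.980 between both auxin libraries and 0.982 between both untreated libraries of CNOT1-AID cells, and genes are not independent replicates. Protein-coding genes made up 52.2% and 49.8% of TPM with auxin, against 44.8% and 42.9% untreated. RNAs annotated as misc_RNA, such as 7SL and 7SK, made up 16% and 16.7% with auxin, against 21.4% and 22.7% untreated. ERCC sequences made up 1.51% and 1.4% with auxin, against 1.57% and 1.58% untreated. In bulk RNA, fewer cells of a kind and less RNA per cell cannot be told apart.

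Without CNOT1, mRNA levels shifted in both directions across most of the genes tested. With TMM scaling (trimmed mean of M values, which sets the bulk of genes to no change), 5472 genes rose (36.7%) and 5198 fell (34.8%) at an adjusted p below 0.05 in limma with Benjamini-Hochberg adjustment over all 14921 genes. At least 2-fold changes were found in 2210 genes that rose (14.8%) and 1638 that fell (11%). The median log2 change was -0.0064 with TMM scaling and 0.30 with ERCC scaling. Relative to TMM, ERCC scaling moved the change of a gene up by a median of 0.34 on the log2 scale and no scaling by 0.25. With ERCC scaling 6877 genes were higher (46.1%) and 2925 lower (19.6%), and with TPM as deposited 6546 were higher and 3564 lower. All but 1 of the genes that rose with TMM were also called higher with ERCC (5471 genes). Of the genes that fell with TMM, 2925 were still called lower with ERCC, and 13 were called higher. Among those that fell at least 2-fold, 1615 of 1638 were still called lower. So the rises below hold on either scale, and a fall of less than about 2-fold can end when levels are set to the spike-in. Each gene named here as changed kept its call with ERCC scaling unless it is said not to.

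In parental cells the same 24 h of auxin gave 0 calls by limma, with 755 genes at an unadjusted p below 0.05. The median absolute log2 change was 0.592 in CNOT1-AID cells and 0.0739 in parental cells. The CNOT1-AID response stood above the parental response in 4823 genes (32.3%) and below it in 4414 (29.6%), by the test of the difference itself (limma, adjusted p below 0.05). With ERCC scaling these counts were 6057 above and 2105 below. Of the genes that rose in CNOT1-AID cells 4761 were also above the parental response, and of those that fell 4323 were also below it. The plot of log2 changes shows the wide CNOT1-AID response and the narrow parental one.

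**Figure D1:**
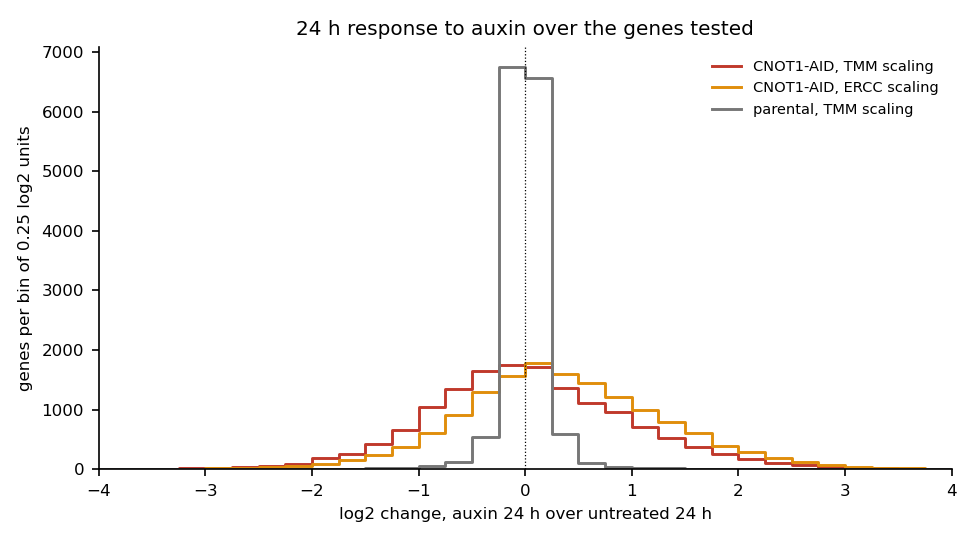
Number of genes (y axis) per bin of 0.25 in log2 change, auxin 24 h over untreated 24 h (x axis), for CNOT1-AID cells with TMM scaling, CNOT1-AID cells with ERCC scaling and parental cells with TMM scaling, over the 14921 genes tested; values beyond the ends of the axis are not drawn. The CNOT1-AID changes spread widely around a median of -0.0064 (TMM) or 0.30 (ERCC), while the parental changes stay close to 0.

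The mRNA of CNOT1 itself, which the degron does not act on, stood at 45.9 and 39.9 TPM with auxin, against 68.4 and 59.0 TPM untreated (log2 -0.82 ± 0.068 SE, adjusted p = 1.1e-08 in limma). Both auxin libraries lay below both untreated ones. The mRNAs of its partners went different ways. The deadenylases of the complex come as 2 pairs of close relatives, and in each pair 1 rose and the other fell. CNOT6L, a CCR4-type deadenylase, stood at 44.1 and 42.7 TPM with auxin, against 9.66 and 8.89 TPM untreated. Its paralog CNOT6 stood at 24.7 and 22.4 TPM with auxin, against 26.0 and 24.6 TPM untreated. CNOT8, a CAF1-type deadenylase, stood at 78.0 and 75.9 TPM with auxin, against 19.9 and 18.5 TPM untreated. Its paralog CNOT7 stood at 81.6 and 78.2 TPM with auxin, against 94.2 and 85.4 TPM untreated. The fold rises were 3.75 for CNOT6L and 3.28 for CNOT8, and the falls of CNOT6 (1.28-fold) and CNOT7 (1.34-fold) did not pass with ERCC scaling (log2 -0.0046 and -0.06). CNOT4, the ubiquitin ligase of the complex, reached 44.4 and 38.8 TPM with auxin, against 8.97 and 7.31 TPM untreated. The NOT-module subunits CNOT2 and CNOT3 rose 1.69- and 1.60-fold, CNOT9, which docks GW182 proteins, 1.29-fold, and TNKS1BP1, a partner of the complex, 3.62-fold (116 and 115 TPM with auxin, against 26.5 and 25.9 TPM untreated). In all, 7 of 12 subunits rose and 3 fell, and 9 higher and 1 lower by ERCC. The paired subunits CNOT10 and CNOT11, which bind the N-terminal part of CNOT1, were at log2 -0.01 and -0.03 and did not pass with TMM (adjusted p = 0.853 and 0.682 in limma). The log2 changes of CNOT10 and CNOT11 were 0.34 and 0.33 with ERCC scaling, where both were called higher.

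Among the proteins that bring CCR4-NOT to mRNAs, 22 of 34 tested genes rose and 7 fell, with a median log2 change of 0.49. The median was -0.0064 over all genes tested and 0.09 over protein-coding genes, of which 43.7% rose and 35.0% fell. BTG2, an antiproliferative adaptor that binds the CAF1-type deadenylases, stood at 16.8 and 18.0 TPM with auxin, against 2.08 and 1.70 TPM untreated. BTG1, its close relative, stood at 53.7 and 44.1 TPM with auxin, against 9.84 and 9.03 TPM untreated. TOB1, which links those deadenylases to poly(A)-binding protein, stood at 118 and 107 TPM with auxin, against 25.2 and 22.6 TPM untreated. For all 3 adaptors the auxin and untreated libraries were far apart, with rises of 6.26-, 4.13- and 3.86-fold. ZFP36L2, which binds AU-rich elements, rose 4.46-fold (65.5 and 65.4 TPM with auxin, against 12.1 and 11.6 TPM untreated). In the other direction, NANOS1, a partner of Pumilio, fell 5.77-fold (2.12 and 2.01 TPM with auxin, against 11.6 and 13.3 TPM untreated). SAMD4B, a Smaug protein whose fly relative recruits the complex, fell 2.61-fold, UNK, a zinc finger RNA-binding protein, fell 2.28-fold, and MEX3D, a KH-domain protein, fell 2.06-fold. BTG2, BTG1, ZFP36L2 and TOB1 had parental half-lives under triptolide between 2.09 and 2.91 h, while the 4 named recruiters that fell lay between 10.3 h (NANOS1) and 63.8 h (SAMD4B).

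**Figure D2:**
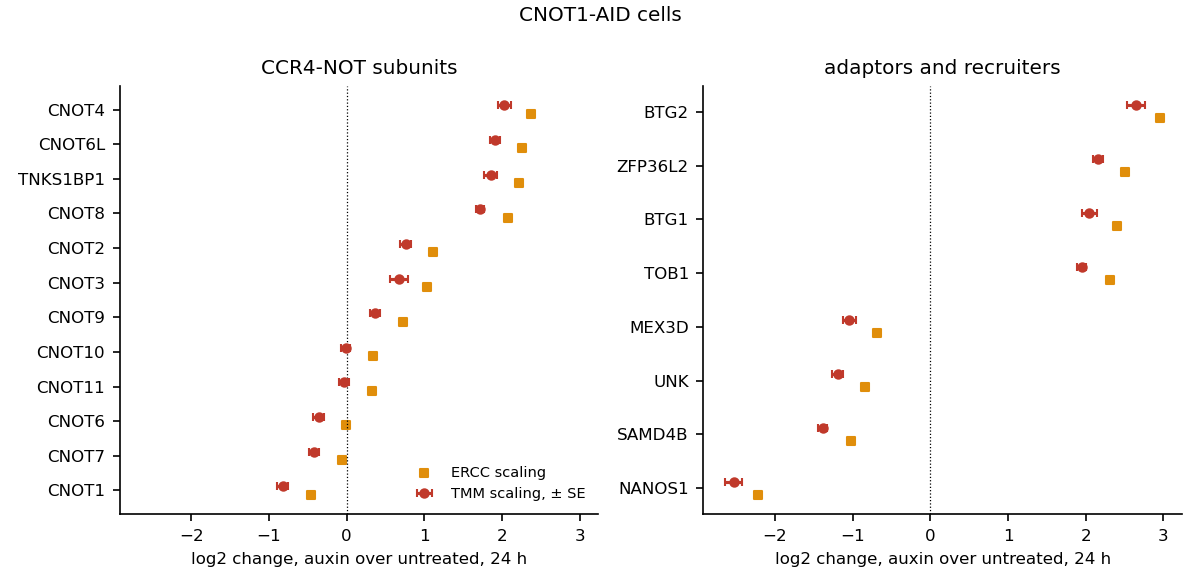
Log2 change at 24 h, auxin over untreated (x axis), of the 12 CCR4-NOT subunits and of the 8 named adaptors and recruiters in CNOT1-AID cells; circles with bars give TMM scaling with the SE of the fit and squares give ERCC scaling. CNOT4, CNOT6L, TNKS1BP1 and CNOT8 stand highest among the subunits, and BTG2 (log2 2.65) and NANOS1 (-2.53) mark the ends among the recruiters.

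Other genes of mRNA decay were set beside all protein-coding genes tested, of which 43.7% rose and 35.0% fell. The shares that rose and fell were 63.6% and 22.7% for other deadenylases and tail-binding proteins. They were 33.3% and 47.6% for decapping and 5′-to-3′ decay, and 52.4% and 28.6% for exosome genes. Of other deadenylases and tail-binding proteins, 14 of 22 members rose and 5 fell (15 higher and 3 lower by ERCC). NOCT, a deadenylase-family phosphatase, rose 2.26-fold and PDE12, which trims tails in mitochondria, rose 2.21-fold. TENT4B, which adds tails in the nucleus, rose 2.20-fold, and LARP4, which guards poly(A) tails, rose 1.97-fold. PABPC1, the main cytoplasmic poly(A)-binding protein and the most abundant of these mRNAs, fell 1.56-fold (1943 and 1849 TPM with auxin, against 2556 and 2367 TPM untreated), and LARP1, which binds ribosomal protein mRNAs, fell 2.40-fold. For decapping and 5′-to-3′ decay, 7 of 21 members rose and 10 fell, against 9 higher and 7 lower by ERCC, so the balance of this list depended on the scaling. The decapping activators DCP1A (1.88-fold), DCP1B (2.04-fold) and DDX6 (1.78-fold) and the translation repressor EIF4ENIF1 (2.02-fold) rose. LSM4, a subunit of the LSM ring that binds shortened tails, fell to 35.2 and 31.9 TPM with auxin, against 129 and 123 TPM untreated (4.43-fold). LSM5 and LSM7 of the same ring fell 1.93- and 2.02-fold. Of exosome genes, 11 of 21 members rose and 6 fell (14 higher and 1 lower by ERCC), led by ZCCHC8 (3.56-fold) and RBM7 (2.63-fold) of the nuclear exosome targeting complex, the core subunit EXOSC4 (2.70-fold) and the nuclease DIS3 (2.10-fold). EXOSC6, another core subunit, fell 2.10-fold.

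The 30 protein-coding genes with the largest rises, among those with a mean of at least 5 TPM and both auxin libraries above both untreated ones, rose between 8.18- and 24.4-fold. The rule set these values, so they are a description. PNRC1, a nuclear receptor coactivator that also binds decapping factors, stood at 177 and 168 TPM with auxin, against 13.1 and 11.8 TPM untreated. Parental cells held 9.39 TPM with auxin and 10.2 TPM untreated. PSMB9, a catalytic subunit of the immunoproteasome, stood at 19.4 and 17.4 TPM with auxin, against 0.910 and 1.11 TPM untreated. For both genes the lowest auxin library was more than 10 times the highest untreated one. SPSB2, an adaptor of a ubiquitin ligase, stood at 25.3 and 26.7 TPM with auxin, against 1.95 and 1.35 TPM untreated. NCKAP5L, a microtubule-binding protein, stood at 23.6 and 22.9 TPM with auxin, against 1.38 and 1.75 TPM untreated. KLF11, a zinc finger repressor, stood at 40.5 and 36.4 TPM with auxin, against 3.20 and 2.70 TPM untreated. These 3 genes were low without auxin and reached 20 TPM or more with it.

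Other large rises were those of transcriptional repressors, signalling proteins and transporters. SNAI1, a repressor of epithelial genes, stood at 33.6 and 34.1 TPM with auxin, against 2.56 and 1.83 TPM untreated. TRIB1, a pseudokinase that guides proteins to the COP1 ubiquitin ligase, stood at 93.7 and 86.3 TPM with auxin, against 6.52 and 6.39 TPM untreated. CRY2, a repressor of the circadian clock, stood at 40.6 and 39.2 TPM with auxin, against 3.47 and 3.76 TPM untreated. None of these groups overlapped. HES7, a repressor of the segmentation clock of the embryo, stood at 46.6 and 51.4 TPM with auxin, against 4.39 and 4.31 TPM untreated, and FRAT2, which binds GSK3 and promotes Wnt signalling, stood at 18.8 and 17 TPM with auxin, against 1.32 and 1.16 TPM untreated. SLC6A8, the creatine transporter, stood at 19.5 and 20.6 TPM with auxin, against 1.39 and 1.56 TPM untreated, and BBS12, a chaperonin-like protein needed for cilia, stood at 11.5 and 10.2 TPM with auxin, against 0.490 and 0.550 TPM untreated. SIK1B, a kinase gene with a near-identical copy elsewhere in the genome, stood at 62.4 and 63.2 TPM with auxin, against 4.28 and 4.64 TPM untreated, and its reads may be split between the copies. DNAAF3 (9.85-fold), CAPN5 (9.57-fold), GRAMD1A (9.38-fold) and SELENOM (8.52-fold) were below 3 TPM in both untreated libraries. All 30 were also above the parental response, beside 2185 of all 2210 genes that rose at least 2-fold. At 8 h of auxin all 30 were already called higher, and the share of all genes called at 8 h was not counted.

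**Figure D3:**
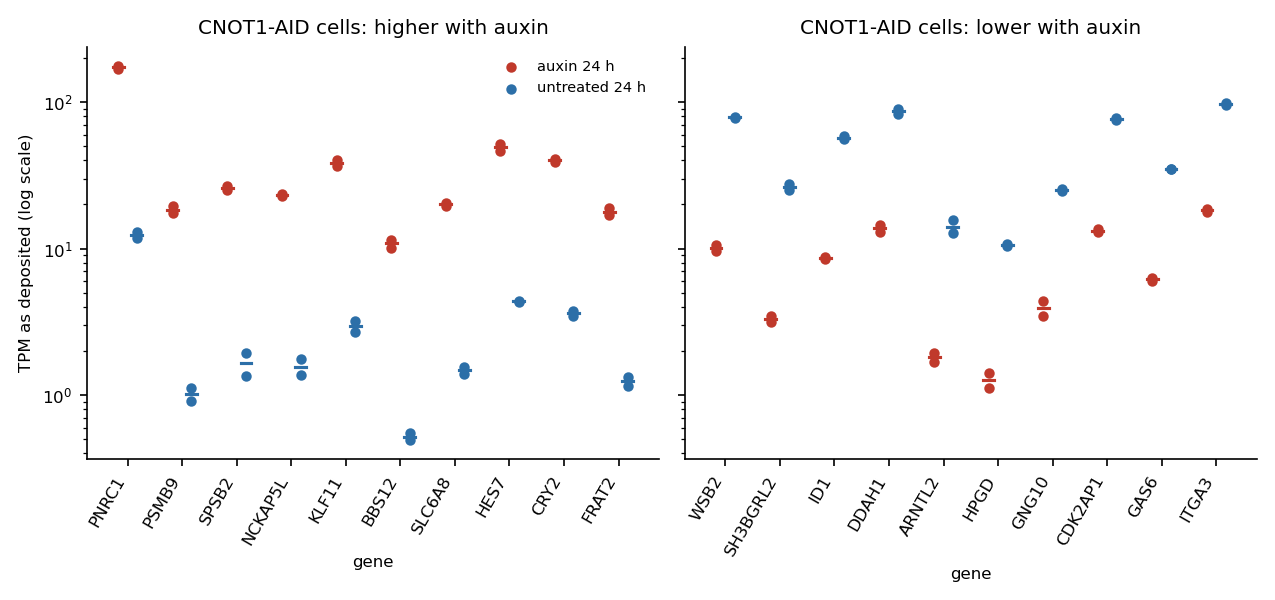
TPM as deposited (y axis, log scale) of 10 genes among the largest rises and 10 among the largest falls in CNOT1-AID cells; each dot is 1 library, short lines are means of 2 libraries, with auxin 24 h at the left and untreated 24 h at the right of each gene. The rule that chose these genes took only those whose auxin and untreated libraries do not overlap. Levels run from PNRC1 (177 and 168 TPM with auxin) to HPGD (1.42 and 1.12 TPM with auxin).

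The 30 largest falls by the same rule lay between 6.21- and 12.5-fold. WSB2, a substrate adaptor of a ubiquitin ligase, stood at 10.6 and 9.58 TPM with auxin, against 79.4 and 77.6 TPM untreated. ID1, an inhibitor of bHLH factors and a target of BMP signalling, stood at 8.81 and 8.42 TPM with auxin, against 58.3 and 55.5 TPM untreated. DDAH1, which breaks down an inhibitor of nitric oxide synthase, stood at 14.5 and 12.9 TPM with auxin, against 90.3 and 83.5 TPM untreated. The untreated libraries of these genes lay between 55.5 and 90.3 TPM and no auxin library reached 15 TPM. HPGD, which inactivates prostaglandins, stood at 1.42 and 1.12 TPM with auxin, against 10.8 and 10.4 TPM untreated. GNG10, a G protein gamma subunit, stood at 4.41 and 3.45 TPM with auxin, against 25.3 and 24.8 TPM untreated. ITGA3, a laminin-binding integrin subunit, stood at 18.6 and 17.8 TPM with auxin, against 98.9 and 95.0 TPM untreated. By the rule, all 3 were lower in each auxin library than in each untreated one. ARNTL2, a partner of CLOCK, stood at 1.69 and 1.94 TPM with auxin, against 15.6 and 12.7 TPM untreated, and GAS6, a ligand of TAM receptors, stood at 6.26 and 6.04 TPM with auxin, against 34.9 and 34.8 TPM untreated. CDK2AP1, which binds CDK2, fell 6.68-fold, ANAPC15, a subunit of the anaphase-promoting complex, fell 6.71-fold, and EIF4EBP2, a brake on cap-dependent translation, fell 6.48-fold (6.16 and 5.72 TPM with auxin, against 35.0 and 34.9 TPM untreated). The membrane proteolipids MAL2 and MALL fell 8.21- and 7.76-fold, TRIOBP, an actin-bundling protein, 6.94-fold, and DUS1L, which makes dihydrouridine in tRNA, 6.29-fold. LUZP6 heads this set with wide spread (0 and 4.04 TPM with auxin, against 26.3 and 11.6 TPM untreated), was not called against the parental response (adjusted p = 0.0758 in limma) and lost its call without auxin replicate 1. The other 29 were below the parental response, beside 1574 of all 1638 genes that fell at least 2-fold. At 8 h 29 of 30 were already called lower, again without a share over all genes.

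Pumilio proteins bind TGTANATA in 3′ UTRs and recruit CCR4-NOT. The first such element of 3 genes that rose and 3 that fell is printed to show that both sets hold the site. The 30 bases are from GENCODE 29 transcripts, 5′ to 3′ on the mRNA strand with T for U, and capitals mark the element. N stands for any base, and only the mRNA strand was searched.

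PNRC1: attttatatttTGTAAATActgtataccat
ZNF574: ccttaagcatcTGTACATActgtgtccctt
KLF2: ttttataatatTGTATATAgtgactgacaa
HPGD: ttcctctgtcgTGTAAATAgtataaccttt
GNG10: ctgccccatcgTGTATATAaatgaagcaga
ITGA3: tgtgccttcttTGTATATAggcttctcacg

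PNRC1 (chromosome 6, 89080751 to 89085160 on GRCh38) holds the element at base 162 of a 3′ UTR of 964 bases. The zinc finger gene ZNF574 (chromosome 19, 42068477 to 42081549) holds it at base 72 of 252, and KLF2 (chromosome 19, 16324817 to 16327874) at base 363 of 843. These 3 genes rose 11.2-, 9.11- and 8.56-fold. HPGD (chromosome 4, 174490177 to 174523154) holds the element at base 1507 of 1779, GNG10 (chromosome 9, 111661335 to 111670246) at base 659 of 984, and ITGA3 (chromosome 17, 50055968 to 50090481) at base 1357 of 1402. These fell 7.06-, 6.78- and 6.21-fold, so the element was found in mRNAs of either direction. Only the first copy in each 3′ UTR is shown. Of the 30 largest rises 7 held the element, of the 30 largest falls 8 did, and over all protein-coding genes tested 26.6% did. For TATTTAT, a core of AU-rich elements that can overlap TGTANATA by at most 2 bases, the counts were 6 and 12, beside 32.1% over all. A match is a description and does not show that a protein binds there.

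TGTANATA was found in 27.2% of annotated 3′ UTRs, and the median change was higher with more copies. Median log2 changes at 24 h were 0.03, 0.23, 0.26 and 0.39 for genes with 0, 1, 2 and 3 or more copies (8432, 2037, 731 and 380 genes). Longer 3′ UTRs hold more copies by length alone. Within 3′ UTRs of 800 to 2000 bases the medians were 0.07, 0.25, 0.27 and 0.66 (2460, 623, 189 and 42 genes), and median parental half-lives were 13.5, 10.5, 8.39 and 6.38 h. For TATTTAT, held by 32.8% of 3′ UTRs, the medians within that length were 0.11, 0.21, 0.13 and 0.41. Coding length also went with the change: the shortest quintile of coding sequences (up to 735 bases) had a median of -0.27, while the other 4 quintiles had medians of 0.14, 0.25, 0.24 and 0.13. By 3′ UTR length the medians of the quintiles lay between -0.0074 and 0.15.

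How fast an mRNA was lost in parental cells went with its change without CNOT1. Half-lives came from separate libraries of cells given auxin for 2 h and then triptolide, which blocks the start of transcription, for 0, 3, 6 and 12 h, with 18216427 to 26723618 counts each. Over 9990 protein-coding genes with at least 5 CPM, mRNAs with parental half-lives under 2 h had a median log2 change at 24 h of 1.64 (55 genes, 49 higher and 6 lower). The medians were 1.29 for 2 to 3 h (322 genes), 1.09 for 3 to 4 h (405), 0.88 for 4 to 6 h (906), 0.51 for 6 to 8 h (867) and 0.32 for 8 to 12 h (1345). They were 0.05 for 12 to 24 h (2138), -0.18 for 24 to 48 h (1368) and -0.35 for 48 h or more (1391). For mRNAs that did not decline in parental cells the median was -0.52 (1193 genes, 138 higher and 861 lower). With ERCC scaling the ends of this series stood at 1.98 and -0.16, so the order held while the level moved. In the parental line every one of these 10 medians lay within 0.04 of 0. Half-lives beyond 12 h are extrapolated, and Spearman's correlation between parental slope and change across these 9990 genes was -0.54. The parental slopes rest partly on a pair of 0 h libraries that agree less well than the others.

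Far more mRNAs were lost more slowly in CNOT1-AID cells than were lost faster. Among 16858 genes, 2603 were lost more slowly than in parental cells (15.4%) and 166 faster (0.985%), by edgeR's quasi-likelihood test of the slope difference with ERCC scaling. The total of 2769 was 919 when replicate 1 of both lines was left out. With TMM scaling of the same counts, 3447 were slower and 2634 faster. Among the 9990 genes the 2139 with slower loss had a median log2 change at 24 h of 0.96, and 82.2% of them rose, whereas the other 7851 had a median of -0.13 and 32.2% rose. Of genes that rose at least 2-fold, 54.9% had a parental half-life under 6 h and 65.2% were lost more slowly without CNOT1. Of those that fell at least 2-fold these shares were 3.15% and 2.96%, and over all 9990 they were 16.9% and 21.4%. In the classes of 12 h or more, and among mRNAs with no decline, 0 were called slower (edgeR), so the shares with slower loss follow the parental half-lives and are not a separate measure. In CNOT1-AID cells the median half-lives of the 6 fastest classes were nearly level, at 27.6, 29.2, 29.9, 29.5, 29.99 and 30.7 h for parental half-lives from under 2 h up to 12 h. These medians are extrapolated past the last time sampled, and the classes were cut on the parental slopes.

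**Figure D4:**
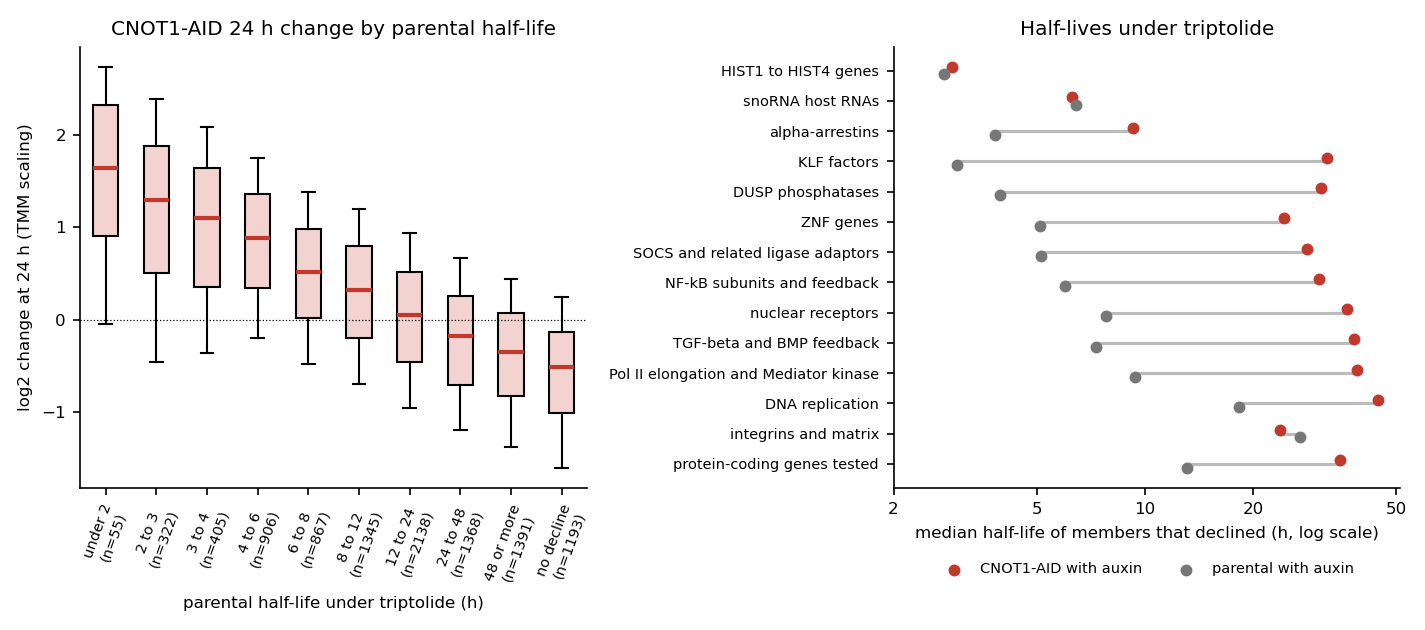
Left, log2 change at 24 h in CNOT1-AID cells (y axis, TMM scaling) by parental half-life under triptolide (x axis, h, with the number of genes); boxes span the quartiles, lines are medians and whiskers run from the 10th to the 90th percentile of genes. Right, median half-life (x axis, h, log scale) of the members of 13 gene groups and of all protein-coding genes tested that declined, in CNOT1-AID cells and parental cells; the medians of the HIST genes and of snoRNA host RNAs nearly coincide, while those of KLF, DUSP and ZNF genes lie far apart.

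Among the 30 largest rises, 27 had a parental half-life, with a median of 3.05 h. Of the 30, 19 were under 6 h, 7 were above 12 h or did not decline, and 18 were lost more slowly without CNOT1. Among the 30 largest falls 15 did not decline in parental cells, 27 were above 12 h or did not decline, 1 was under 6 h, and 0 were called slower (edgeR, where 2603 genes were). KLF11 had a half-life of 3.05 h in parental cells, BBS12 2.18 h, SPSB2 2.37 h and KLF2 1.18 h, and each was lost more slowly in CNOT1-AID cells (adjusted p = 1.14e-06, 4.67e-06, 2.27e-05 and 0.000279 in edgeR). There were exceptions in both directions. The 1 short-lived gene among the falls was ID1, at 5.16 h in CNOT1-AID cells and 2.68 h in parental cells, a difference that did not pass (adjusted p = 0.228 in edgeR). KLF6, a Krüppel-like factor, had 3.15 h in CNOT1-AID cells and 2.34 h in parental cells (adjusted p = 0.748 in edgeR) and fell 3.26-fold (7.56 and 6.85 TPM with auxin, against 21.3 and 20.2 TPM untreated). JUND, an AP-1 subunit, and ASCL2, a stem cell factor of the gut, were short-lived in parental cells (3.78 and 3.40 h) and lost more slowly without CNOT1 (adjusted p = 1.16e-05 and 7.63e-05 in edgeR), yet fell 2.84- and 3.35-fold. In all, 34 of the 1688 mRNAs with a half-life under 6 h fell at least 2-fold, of which 19 were lost more slowly, and 101 mRNAs at 24 h or more, or with no decline, rose at least 2-fold, such as TFDP2, an E2F partner (4.04-fold).

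Histone mRNAs of the HIST clusters were short-lived in both lines. These replication-dependent mRNAs end in a stem-loop and carry no poly(A) tail, with few exceptions. All 60 with a slope had parental half-lives under 6 h, 0 of 60 were called slower without CNOT1 (edgeR), and their median half-life was 2.90 h in CNOT1-AID cells and 2.76 h in parental cells. At 24 h 8 of 61 HIST genes rose and 39 fell (12 higher and 25 lower by ERCC), with a median log2 change of -0.58. HIST2H2AC fell 2.83-fold and HIST1H2AK 2.61-fold, while HIST1H2AE rose 6.71-fold. Their near-identical copies share reads, so single HIST values are uncertain. Of histone genes outside the clusters, whose mRNAs carry a poly(A) tail, 3 of 11 rose and 7 fell (3 higher and 5 lower by ERCC). The median log2 change of this list was -0.53, near that of the HIST genes. Among its members H1F0 rose 3.78-fold (93.4 and 90.3 TPM with auxin, against 20.2 and 19.6 TPM untreated) and H3F3B 2.17-fold, while H2AFV fell 2.90-fold. Of RNAs that host small nucleolar RNAs, many of which are degraded by nonsense-mediated decay, 1 of 21 was called slower, with a median half-life of 6.27 h in CNOT1-AID cells and 6.42 h in parental cells. At 24 h 1 of 21 RNAs rose and 20 fell (2 higher and 13 lower by ERCC), among them DANCR (48.7 and 47.2 TPM with auxin, against 102 and 107 TPM untreated), ZFAS1 (75.9 and 70.9 TPM with auxin, against 133 and 124 TPM untreated) and SNHG6 (18.7 and 16.6 TPM with auxin, against 30.5 and 29.9 TPM untreated). For comparison, among 11779 protein-coding genes with a slope 2438 were called slower, and the median half-life was 34.9 h in CNOT1-AID cells and 13.1 h in parental cells. Median half-lives cover only RNAs that declined in the line given, which in parental cells were 10404 of these protein-coding genes.

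Noncoding RNA classes held more falls than rises with TMM scaling. Of 533 lincRNAs 66 rose and 263 fell, with a median log2 change of -0.51 (-0.28 with ERCC). Of 553 antisense RNAs 87 rose and 239 fell (median -0.38, or -0.13 with ERCC), and their reads cannot be told apart from those of the gene on the other strand unless strand was used in counting, which is not given in the sources used here. Processed pseudogenes, whose reads can come from their parent genes, had a median of -0.20 (0.030 with ERCC), with 55 rising and 159 falling of 673. Small nucleolar RNAs had a median of -0.09 (0.064 with ERCC), with 3 rising and 15 falling of 162. Protein-coding genes had a median of 0.09 (0.43 with ERCC), with 5166 rising and 4137 falling of 11829. Of long nuclear RNAs 2 of 8 rose and 4 fell (3 higher and 1 lower by ERCC, which turns the balance). Their median log2 change was -0.20, or 0.14 with ERCC. The 2 that rose were MALAT1 and NEAT1. MALAT1 stood at 1711 and 1304 TPM with auxin, against 750.5 and 612 TPM untreated, and NEAT1, the scaffold of paraspeckles, stood at 57.0 and 48 TPM with auxin, against 14.1 and 12.3 TPM untreated.

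Gene groups were read against the background of 36.7% of all genes higher and 34.8% lower. Most groups hold protein-coding genes, and of all protein-coding genes tested 43.7% were higher and 35.0% lower (median log2 0.09). The mRNAs of the transcription machinery beyond the polymerase core were mostly higher. Of genes for Pol II elongation and the Mediator kinase, 29 of 37 members rose and 4 fell, 14 of them rising at least 2-fold (median log2 0.73). MED26, which links Mediator to elongation factors, stood at 65.5 and 63.3 TPM with auxin, against 7.17 and 7.88 TPM untreated, and CDK7, the TFIIH kinase, stood at 128 and 108 TPM with auxin, against 23.6 and 22.2 TPM untreated. ELL and ELL3, elongation factors, rose 4.75- and 3.55-fold, while their paralog ELL2 fell 1.92-fold. Of Mediator subunits 21 of 29 genes rose and 5 fell, led after MED26 by MED17 (4.68-fold) and MED18 (2.98-fold). Of RNA polymerase I and III subunits 9 of 13 rose and 0 fell in limma (12 higher and 0 lower by ERCC), with POLR1C, shared by both enzymes, at 288 and 271 TPM with auxin, against 32.1 and 31.2 TPM untreated. Of Pol II subunits 5 of 13 genes rose and 6 fell (7 higher and 1 lower by ERCC, which turns the balance): POLR2A, the large catalytic subunit, rose 1.75-fold and POLR2L, a small shared subunit, fell 3.24-fold.

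**Figure D5:**
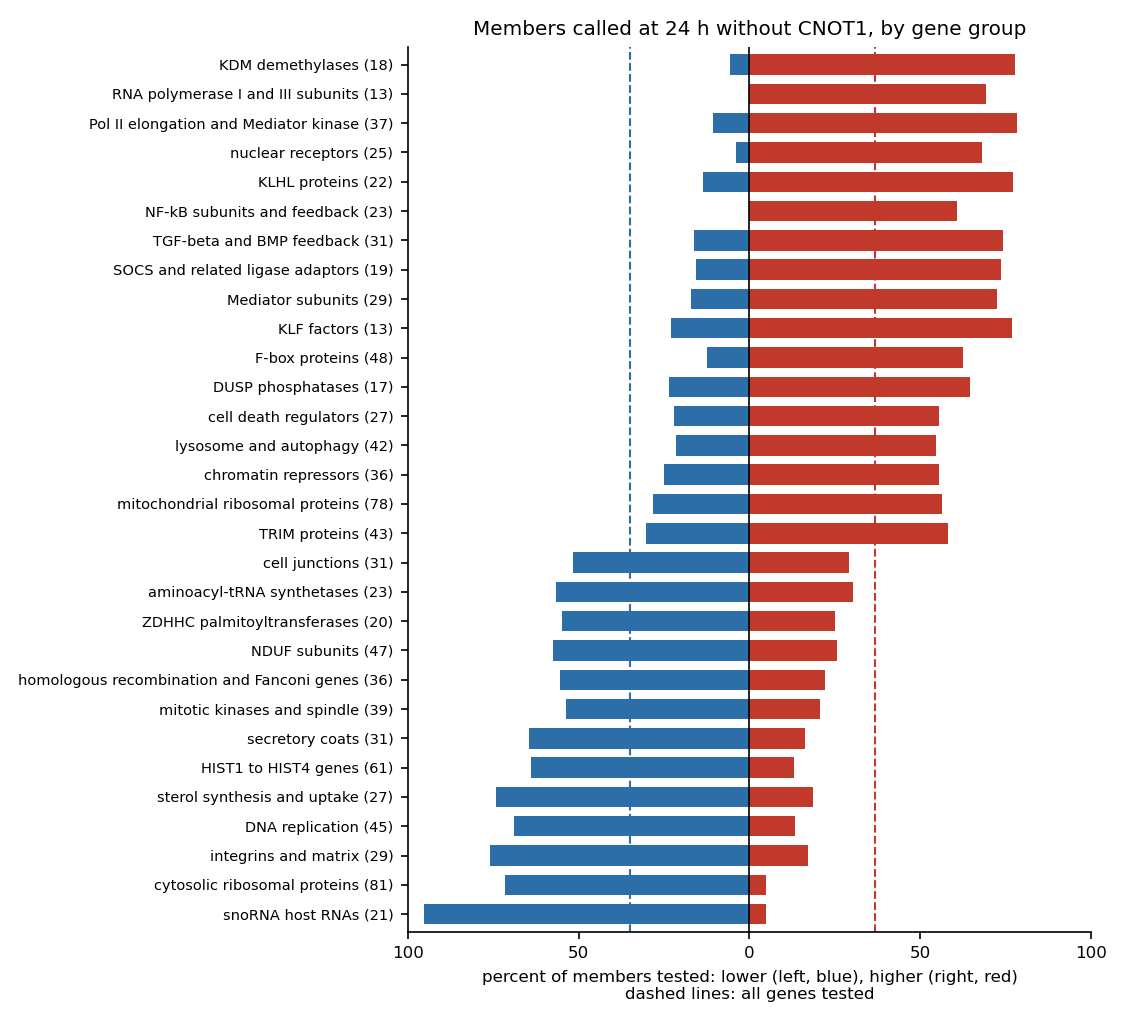
Percent of the tested members of 30 gene groups (number tested in brackets) that were called higher (right) or lower (left) at 24 h of auxin in CNOT1-AID cells with TMM scaling; dashed lines mark all genes tested, at 36.7% higher and 34.8% lower. Protein-coding genes tested, not drawn, stood at 43.7% higher and 35.0% lower. KDM demethylases, RNA polymerase I and III subunits and Pol II elongation genes stand at the top, and integrins and matrix, cytosolic ribosomal proteins and snoRNA host RNAs at the bottom.

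Of KDM histone demethylases 14 of 18 members rose and 1 fell, with KDM3A (3.93-fold), KDM5B (3.54-fold) and KDM6A (3.48-fold) at the top. Of chromatin repressors 20 of 36 members rose and 9 fell. The Polycomb protein CBX8 (67.3 and 67.4 TPM with auxin, against 8.43 and 6.75 TPM untreated) rose 7.03-fold, and PCGF1, of a variant Polycomb complex, rose 5.26-fold. Other chromobox genes went the other way: CBX5, heterochromatin protein HP1 alpha, stood at 14 and 12.3 TPM with auxin, against 49.5 and 46.4 TPM untreated and CBX6 fell 2.28-fold. Of PHD finger genes 10 of 17 genes rose and 5 fell. PHF23 reached 401 and 370.4 TPM with auxin, against 44.7 and 37.0 TPM untreated, while PHF19, a Polycomb accessory protein, stood at 16.5 and 14.8 TPM with auxin, against 57.1 and 58.3 TPM untreated. SIRT1, a deacetylase, rose 3.93-fold. Of C2H2 zinc finger genes named ZNF, 274 of 371 genes rose and 30 fell, and 199 of 370 were lost more slowly. Among the few that fell, ZNF358 and ZNF219 fell 3.46- and 3.01-fold.

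Feedback regulators of signalling were mostly higher. Of TGF-beta and BMP genes 23 of 31 members rose and 5 fell (median log2 0.81). The inhibitory SMAD7 (107 and 97.3 TPM with auxin, against 28.9 and 27.4 TPM untreated), the decoy receptor BAMBI (4.17-fold) and the corepressor TGIF1 (4.24-fold) rose, and so did the ligand BMP4 (1698 and 1594 TPM with auxin, against 368 and 361 TPM untreated). The BMP target genes of the ID family fell, ID1 by 7.46-fold, ID3 by 2.80-fold and ID2 by 1.87-fold. So ligand and inhibitors were higher while the ID targets were lower. Of SOCS-box adaptors 14 of 19 members rose and 3 fell: CISH (4.77-fold), SOCS6 (4.05-fold) and SPSB1 (5.81-fold) rose, against the fall of WSB2 above. Of DUSP phosphatases, several of which switch off MAP kinases, 11 of 17 genes rose and 4 fell, with DUSP2 at 38.3 and 41.2 TPM with auxin, against 4.50 and 4.94 TPM untreated and DUSP10 at 32.8 and 29.7 TPM with auxin, against 5.03 and 4.70 TPM untreated. The EGF list had 12 of 20 higher and 5 lower: the inhibitor SPRY2 (3.75-fold) and the ligands HBEGF (3.53-fold) and EREG (3.05-fold) rose, while the receptor ERBB2 fell 2.01-fold.

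Of NF-kB genes 14 of 23 rose and 0 fell in limma (19 higher and 0 lower by ERCC). NFKBIA, the inhibitor IκB alpha, stood at 205 and 203 TPM with auxin, against 26.8 and 24.2 TPM untreated, and ICAM1, an adhesion molecule, stood at 74.9 and 70.2 TPM with auxin, against 13.4 and 11.9 TPM untreated. Of nuclear receptors 17 of 25 genes rose and 1 fell, with RARA at 51.5 and 50.2 TPM with auxin, against 8.73 and 9.19 TPM untreated and NR1H2, the oxysterol receptor LXR beta, up 3.73-fold. Of AP-1 factors 6 of 12 genes rose and 4 fell: JUNB stood at 186 and 208 TPM with auxin, against 29.2 and 29.1 TPM untreated and JDP2, an AP-1 repressor, fell 3.42-fold beside JUND. Of KLF factors 10 of 13 genes rose and 3 fell, including KLF5 of gut epithelium (333 and 304 TPM with auxin, against 62.1 and 52.8 TPM untreated). Of circadian clock genes 8 of 16 genes rose and 3 fell (9 higher and 1 lower by ERCC). The repressors CRY2, PER1 (41.7 and 36.2 TPM with auxin, against 5.46 and 4.48 TPM untreated) and PER2 (3.31-fold) rose. The activators ARNTL2, ARNTL (1.68-fold) and CLOCK (1.58-fold) fell, where ARNTL and CLOCK did not pass with ERCC scaling (log2 -0.41 and -0.31). In the Wnt list 18 of 31 rose and 11 fell. AXIN2, a feedback inhibitor, stood at 859 and 853 TPM with auxin, against 234 and 231 TPM untreated, while the stem cell genes LGR5 and ASCL2 fell 3.03- and 3.35-fold and the coreceptor LRP5 fell 3.48-fold.

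Of 27 regulators of cell death 15 rose and 6 fell. The BH3-only genes BCL2L11, which encodes BIM, stood at 41.3 and 37.6 TPM with auxin, against 5.79 and 4.80 TPM untreated, BBC3, which encodes PUMA, at 21.1 and 23.4 TPM with auxin, against 3.51 and 3.76 TPM untreated, and BMF at 14.9 and 14.2 TPM with auxin, against 2.16 and 1.64 TPM untreated. The survival genes BCL2L1, which encodes BCL-XL, and CFLAR, an inhibitor of caspase-8, fell 2.07- and 2.11-fold. The cyclin-dependent kinase inhibitor CDKN1B stood at 268 and 243 TPM with auxin, against 28.4 and 26.6 TPM untreated. In the list of mTOR brakes and nutrient sensing 11 of 28 members rose and 13 fell (13 higher and 8 lower by ERCC, which turns the balance). DDIT4, a stress-induced brake on mTORC1, stood at 441 and 463 TPM with auxin, against 36.3 and 37.3 TPM untreated and SESN2, a leucine sensor, rose 2.49-fold, while EIF4EBP1 and EIF4EBP2, translation brakes downstream of mTORC1, fell 1.88- and 6.48-fold. Of lysosome and autophagy genes 23 of 42 members rose and 9 fell (31 higher and 4 lower by ERCC), with the kinases ULK1 (2.51-fold) and PIK3C3 (2.61-fold) and the protease CTSL (2.59-fold) higher.

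With TMM scaling, genes of sterol synthesis, the TCA cycle and respiratory complex I were mostly lower. Of genes of sterol synthesis and uptake 5 of 27 members rose and 20 fell (6 higher and 11 lower by ERCC). SREBF2, the transcription factor of this pathway, stood at 12.6 and 10.5 TPM with auxin, against 54.1 and 55.1 TPM untreated, and MVK and MVD, enzymes of the mevalonate pathway, fell 2.99- and 2.88-fold. Of TCA cycle genes 6 of 24 members rose and 14 fell (10 higher and 5 lower by ERCC), and of NDUF genes of respiratory complex I 12 of 47 members rose and 27 fell (16 higher and 11 lower by ERCC), so with ERCC scaling more members of both lists were higher than lower. In glycolysis 10 of 26 members rose and 9 fell (16 higher and 0 lower by ERCC): the lactate exporter SLC16A3 (3.22-fold), HK2 (2.90-fold) and PFKFB3 (3.07-fold) rose. Of ATF4 and amino acid genes 9 of 24 genes rose and 14 fell (10 higher and 10 lower by ERCC): the stress factors DDIT3 (3.62-fold) and CHAC1 (2.78-fold) rose and the synthetic enzymes PHGDH (2.67-fold) and ASNS (2.36-fold) and the transporter SLC7A5 (72.0 and 71.2 TPM with auxin, against 241 and 241 TPM untreated) fell. The ferritin chains went opposite ways: FTH1, the ferritin heavy chain, stood at 395 and 415 TPM with auxin, against 1575 and 1607 TPM untreated, and FTL, the light chain, at 681 and 652 TPM with auxin, against 290.1 and 286 TPM untreated. Processed copies of both ferritin genes exist in the genome and could take some of their reads.

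Of cytosolic ribosomal protein genes 4 of 81 genes rose and 58 fell with TMM, against 22 higher and 10 lower by ERCC, so the direction of this family depends on the scaling (median log2 -0.27 with TMM and 0.09 with ERCC). Of mitochondrial ones 44 of 78 genes rose and 22 fell (55 higher and 9 lower by ERCC), with MRPL44 (3.04-fold) and MRPS30 (2.94-fold) higher and MRPL23 (3.16-fold) lower. In the triptolide libraries 0 of 81 cytosolic and 21 of 78 mitochondrial genes were called slower (edgeR, 2603 of 16858 genes in all), and only 10 of the cytosolic set declined at all in parental cells. Of aminoacyl-tRNA synthetases and partners 7 of 23 members rose and 13 fell (9 higher and 6 lower by ERCC), with YARS and IARS lower (2.22- and 2.11-fold) and FARSA higher (1.98-fold).

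Many genes of adhesion to the matrix and of the keratin cytoskeleton were lower. Of integrins and matrix genes 5 of 29 members rose and 22 fell, 15 of them falling at least 2-fold (5 higher and 18 lower by ERCC). Besides ITGA3, ITGB5 stood at 19.1 and 18.3 TPM with auxin, against 84.6 and 79.7 TPM untreated and AGRN, a heparan sulfate proteoglycan, at 20.3 and 15.5 TPM with auxin, against 57.5 and 57.7 TPM untreated. ITGA5, a fibronectin receptor subunit, went the other way, at 47.1 and 46.2 TPM with auxin, against 9.55 and 8.28 TPM untreated. Of keratins 1 of 7 genes rose and 6 fell, with KRT8 at 706 and 720.4 TPM with auxin, against 1720.2 and 1676 TPM untreated and its partner KRT18 at 701 and 699 TPM with auxin, against 1353 and 1306 TPM untreated. Of junction genes 9 of 31 members rose and 16 fell (14 higher and 12 lower by ERCC, which turns the balance): CDH17 (3.51-fold) and GJB2 (2.97-fold) fell and CLDN4, a tight junction claudin, rose to 380.4 and 386 TPM with auxin, against 108 and 110.3 TPM untreated. Of ZDHHC palmitoyltransferases, which attach lipid anchors, 5 of 20 members rose and 11 fell, 9 by at least 2-fold, such as ZDHHC20 (16.7 and 15.2 TPM with auxin, against 48.3 and 42.3 TPM untreated). Of secretory coat genes 5 of 31 members rose and 20 fell (11 higher and 7 lower by ERCC, which turns the balance), where ARF4 fell 2.37-fold and SEC24B rose 3.95-fold.

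Replication genes were lower on balance on either scale, and mitotic genes with TMM scaling alone. Of DNA replication genes 6 of 45 members rose and 31 fell (12 higher and 19 lower by ERCC). TYMS, thymidylate synthase, stood at 68.6 and 71.0 TPM with auxin, against 161 and 156 TPM untreated, a fall of 2.70-fold, and POLE, a replicative polymerase, fell 2.54-fold. The licensing factor CDT1 rose 2.11-fold, and its inhibitor GMNN 1.59-fold. Of mitotic genes 8 of 39 members rose and 21 fell (14 higher and 9 lower by ERCC), with BIRC5, which encodes survivin, at 12.5 and 12.3 TPM with auxin, against 67.2 and 65.9 TPM untreated, FOXM1 down 2.66-fold and the phosphatase CDC25A up 2.99-fold. Of genes of homologous recombination and the Fanconi pathway 8 of 36 members rose and 20 fell (11 higher and 7 lower by ERCC, which turns the balance): FANCD2 fell 2.86-fold and PALB2 rose 3.48-fold. Of cyclins and CDK inhibitors 8 of 15 genes rose and 6 fell, with CCNE1, the G1/S cyclin, up 2.46-fold and CCND1, the G1 cyclin, down 1.55-fold. Of E2F and pocket protein genes 5 of 13 genes rose and 6 fell (5 higher and 2 lower by ERCC, which turns the balance). The DP partners of E2F diverged, as TFDP2 stood at 52.1 and 50.2 TPM with auxin, against 11.4 and 9.10 TPM untreated and TFDP1 at 47.6 and 43.5 TPM with auxin, against 125 and 125 TPM untreated, and E2F1 fell 3.16-fold.

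Ubiquitin ligase families were mostly higher. Of KLHL adaptors 17 of 22 genes rose and 3 fell, with KLHL24 (6.21-fold) and KLHL28 (4.78-fold) higher and KLHL5 (6.35-fold) and KLHL2 (4.84-fold) lower. Of F-box genes 30 of 48 genes rose and 6 fell, with FBXO44 (4.74-fold) at the top and FBXW5 (2.85-fold) at the bottom. Of TRIM genes 25 of 43 genes rose and 13 fell: TRIM13 stood at 79.9 and 74.1 TPM with auxin, against 9.62 and 9.24 TPM untreated and TRIM66 at 3.22 and 1.84 TPM with auxin, against 9.85 and 9.71 TPM untreated.

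Most RNA helicases and RBM proteins were higher. Of DEAD and DEAH box helicases 32 of 50 genes rose and 5 fell, with DDX28, a mitochondrial helicase, at 49.1 and 47.1 TPM with auxin, against 6.66 and 6.76 TPM untreated and DDX20, a partner of the SMN complex, up 4.35-fold. DDX39B, a helicase of splicing and mRNA export, fell 1.63-fold. Of RBM genes 27 of 38 genes rose and 5 fell, from RBM48, of the minor spliceosome (5.15-fold higher), to RBMS2 (2.82-fold lower). Of SR proteins and their kinases 8 of 19 genes rose and 4 fell, where the kinases SRPK2, CLK2 and CLK1 rose 2.56-, 2.02- and 1.86-fold and SRSF9, a splicing factor, fell 1.71-fold. HNRNP genes split, with 9 of 23 higher and 8 lower (13 higher and 0 lower by ERCC), and HNRNPF at 517 and 497 TPM with auxin, against 216 and 206 TPM untreated.

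Of HSP genes 16 of 24 genes rose and 3 fell: HSPA6, a strictly stress-induced chaperone, stood at 11.9 and 11.9 TPM with auxin, against 0.710 and 0.580 TPM untreated, and HSPA1B at 475 and 498 TPM with auxin, against 115 and 109 TPM untreated, although HSPA1B has a near-identical copy and its reads may be split. DNAJB1, their cochaperone, rose 2.96-fold. In the endoplasmic reticulum the protein disulfide isomerases PDIA4 and PDIA6 and the chaperone HSP90B1 fell 2.05-, 1.70- and 1.81-fold, while DNAJB9, an inhibitor of the stress sensor IRE1, rose 4.08-fold and ERN1, IRE1 itself, 2.33-fold. Of that list of ER chaperones and stress sensors 8 of 24 members rose and 9 fell (13 higher and 5 lower by ERCC, which turns the balance). Of proteasome subunits 23 of 47 genes rose and 13 fell: besides PSMB9, PSMB8 of the immunoproteasome rose 2.34-fold, and PSMD12 rose 1.64-fold. For class I antigen presentation 10 of 24 members rose and 9 fell, with HLA-E up 2.62-fold and TAPBP, which loads peptides, down 2.09-fold. For NRF2 genes 8 of 19 members rose and 9 fell (10 higher and 5 lower by ERCC): the factor NFE2L2 stood at 139.9 and 121 TPM with auxin, against 42.7 and 39.7 TPM untreated and its inhibitor KEAP1 at 102 and 102 TPM with auxin, against 36.6 and 37.6 TPM untreated.

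Most markers of colon epithelium were present, and those of most other cell types were low. Averaged over the 4 libraries, 12 of the 15 colon epithelium markers reached 1 TPM, and the summed level of all 15 was 2921 and 2911 TPM with auxin, against 4313 and 4173 TPM untreated. KRT8 and KRT18 held most of the untreated sums, and both fell. In TPM as deposited KRT20, CDH1 and CDH17 were also lower, while KRT19, CDX2, LGALS4 and CLDN4 were higher in both auxin libraries. The lower sum therefore does not describe every marker. The 8 fibroblast markers summed to 4.95 and 3.24 TPM with auxin, against 0.31 and 0.18 TPM untreated, with COL1A2, LUM and PDGFRA at 0 and COL1A1 alone at a mean of 1 TPM or more. Blood markers summed to 6.82 and 5.68 TPM with auxin, against 0.74 and 0.78 TPM untreated, all but 0.02 TPM or less of it from CD14 and CD68, with PTPRC, CD3E and HBB at 0. Endothelial markers summed to at most 0.35 TPM in any library. Of 4 neural markers TUBB3 rose (132 and 132 TPM with auxin, against 64.9 and 66.2 TPM untreated) and MAP2 fell (1.24 and 1.30 TPM with auxin, against 5.38 and 4.44 TPM untreated). The part of these shifts in the results above was not tested.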

How the data were processed

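Total RNA of DLD-1 cells was sequenced after ribosomal RNA depletion with a stranded kit and ERCC spike-ins, per the labels' protocols. Tools named in the submitters' processing notes were featureCounts, SAMtools, RSEM, STAR 2.5.1b and DESeq2, and the builds hg38 and GRCh38; the role of each tool is not given in the sources used here. Steady-state values are TPM deposited by the authors, with ERCC sequences included. Triptolide values are whole-number counts per gene deposited by the authors.

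Genes with at least 1 TPM in at least 2 of 24 steady-state libraries were kept. TPM was scaled by TMM, or by the median ratio over 48 of 92 ERCC sequences, and log2(TPM + 0.5) was fitted with limma 3.58.1 (trend and robust) in R 4.3.3 over 12 groups of 2 libraries. These groups were parental, CNOT1-AID and CNOT4-AID cells, each with 1 mM auxin or untreated, at 8 h or 24 h. A fold change is on this scale and understates low genes. P-values were adjusted by Benjamini-Hochberg, with calls at 0.05. The per-library TPM printed are as deposited, so for rises their ratios exceed the fitted folds with TMM and for falls they are smaller. Losses under 1 µM triptolide were log-linear slopes over 0, 3, 6 and 12 h from edgeR 4.0.16 (quasi-likelihood, ERCC scaling over 56 sequences, 18 residual degrees of freedom), from libraries of 18216427 to 26723618 counts. The slope fit held the parental, CNOT1-AID and CNOT4-AID libraries together. DESeq2 1.42.0 was an alternative. The depth behind TPM is unknown. Both fits were tested on simulated data in which far fewer genes changed than were called here, so those runs do not bear on the choice of scaling.

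Named genes were the 30 largest rises and 30 largest falls among protein-coding genes past the threshold, with a mean of at least 5 TPM over the 4 libraries and libraries that do not overlap; every CCR4-NOT subunit; and in each list up to 4 rises and 4 falls past the threshold with a mean of at least 5 TPM. Markers were outside this rule. Members and lists were chosen with earlier results of these data known. The labels do not say whether replicates came from separate cultures, so p-values measure only the spread between libraries, which may be technical. Other scalings, pseudocounts, filters, library sets, the replicate block and leaving out single steady-state libraries or whole triptolide replicates were tried. A few members of the lists are counted but not reported here by name.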

Additional observations from a re-analysis of the deposited data

Results flagged for a closer look

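The response to 24 h of auxin differed between the lines. In 4823 genes the CNOT1-AID response stood above the parental response and in 4414 below it (limma, test of the difference, adjusted p below 0.05). Parental cells themselves had 0 calls, with 755 genes at an unadjusted p below 0.05.

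The CNOT1-AID response also differed between times. In 2602 genes the response at 24 h stood above that at 8 h and in 2820 below it, by limma's test of the difference. Each time had its own untreated libraries. No group had enough libraries for a search for single libraries far from the others.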

How the results depend on the processing

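Direction was most sensitive to scaling. With ERCC scaling by the median ratio or by summed TPM, genes lower numbered 2925 and 2891 (5198 with TMM), genes at least 2-fold higher 3451 and 3515 (2210) and genes at least 2-fold lower 902 and 882 (1638). Genes below the parental response numbered 2105 and 2061 with ERCC and 2771 with no scaling (4414 with TMM). By summed ERCC TPM, the log2 change of CNOT6 was 0.011 and the median of mRNAs with a parental half-life of 24 h or more, or no decline, was 0.013, both above 0 where TMM gave values below 0. Of the named genes, CNOT6 and CNOT7 lost their calls with ERCC or no scaling, ARNTL and CLOCK with ERCC scaling, and LUZP6 in a fit of the 4 libraries alone and without auxin replicate 1; the cause was not tested. Slope differences numbered 6081 with TMM scaling, 2634 of them faster (2769 and 166 with ERCC), and 2895 by DESeq2.

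With 1 library left out at a time, so that the lone library left is assumed to vary like the other groups, the calls ranged from 9687 to 9895 (10670 with all), with 4975 to 5105 higher and 4712 to 4790 lower, 2119 to 2254 at least 2-fold higher and 1617 to 1666 at least 2-fold lower. Differences from the parental response ranged from 8434 to 8736 (9237 with all), with 4384 to 4624 above and 4050 to 4135 below. Slope differences ranged from 919 to 1910, with 803 to 1855 slower and 55 to 116 faster; 919 and 803 were without replicate 1 of both lines and 55 without replicate 2 of both. Parental losses ranged from 4865 (without parental replicate 1) to 5738 (7437 with all).

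With the replicate number as a block, calls were 10662 (5454 higher, 5208 lower), those at least 2-fold 2207 and 1641, differences from the parental response 9222 and slope differences 2662. The labels do not say that the numbers pair the libraries; deviations of same-numbered libraries correlated across genes with r of 0.102 in CNOT1-AID and 0.034 in parental cells. No call of a named gene changed with the block. Other pseudocounts, filters, gene-based scaling and the 12 libraries at 24 h alone ended no call of a named gene. Depth is unknown for TPM, so no detection floor was set.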

Other observations

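Membrane traffic and developmental genes, which stand in none of the comparisons above, were set beside all protein-coding genes tested. Of those, 43.7% rose and 35.0% fell with the same 24 h of auxin. Of RAB GTPases and their partners 34 of 56 genes rose (60.7%) and 16 fell (28.6%), against 38 higher and 12 lower by ERCC. RAB3A, which controls regulated exocytosis, stood at 12.1 and 13.5 TPM with auxin, against 0.790 and 0.960 TPM untreated, while its relative RAB3B stood at 5.48 and 5.13 TPM with auxin, against 15.2 and 14.5 TPM untreated. RAB27B, of secretory granules and exosomes, rose 2.75-fold, and RAB4A, of fast recycling, fell 2.54-fold. Of HOX genes 14 of 24 genes rose (58.3%) and 7 fell (29.2%), against 16 higher and 2 lower by ERCC. HOXA13, which patterns the hindgut, stood at 147 and 131 TPM with auxin, against 28.8 and 27.6 TPM untreated, and HOXB6 fell 1.90-fold. SOX9, of intestinal crypts, rose 1.81-fold and HNF4A, of enterocytes, 1.65-fold. The Notch list lay near the background, as 9 of 22 members rose (40.9%) and 8 fell (36.4%), against 11 higher and 4 lower by ERCC. In it the inhibitor NUMBL rose 4.47-fold and the target HES1 2.41-fold, while HES4 fell 3.78-fold.

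Protease inhibitors and secreted proteins also split. SERPINB5, the tumour suppressor maspin, stood at 14.2 and 12.8 TPM with auxin, against 0.910 and 1.14 TPM untreated, and SERPINB1, an inhibitor of neutrophil proteases, fell 4.05-fold. Of chemokine and cytokine genes 6 of 16 genes rose and 9 fell (6 higher and 8 lower by ERCC): TNFSF9 and CSF1 rose 6.28- and 4.56-fold and IL18 fell 5.47-fold. Tubulin mRNAs were mixed, as TUBB2A rose 1.90-fold and TUBA1B fell 1.79-fold, and TTC5, which directs the decay of tubulin mRNAs through CCR4-NOT, rose 2.97-fold. Of USP deubiquitinases 29 of 47 genes rose and 12 fell (30 higher and 3 lower by ERCC), led by USP42 (4.16-fold). Of solute carriers 83 of 208 genes rose and 78 fell (106 higher and 47 lower by ERCC), near the background of all genes.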
